A study of Homo sapiens with 24 samples.

Results

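Azacytidine (Aza) at 1500 nM was compared with Aza at 150 nM in HCT116 cells after 72 h of treatment. HCT116 is an established cell line from a human colorectal carcinoma. The 4 arrays compared were the 2 titled with each dose among the 24 arrays of the series, and no measured value was used to choose them. The series set DAC, Aza and compounds named in its labels as prodrugs beside the solvent dimethyl sulfoxide (DMSO), on Affymetrix HG-U133 Plus 2.0 arrays. The groups used here were Aza 1500 nM, Aza 150 nM, G669043 1500 nM and G669043 150 nM with 2 arrays each, and DMSO with 4 arrays. All compounds were added from stocks in DMSO, so every treated culture also received the solvent. G669043 is known here only by its code, its titles carry the prefix Aza, and how it relates to Aza is not given in the labels. The labels do not say whether the arrays of a group came from separate cultures. The p-values below therefore measure the spread between these arrays, which may be technical.

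Aza is a cytidine analogue that cells phosphorylate and build into RNA and, after reduction of its ribose, into DNA. In newly copied DNA it traps DNA methyltransferases, the enzymes that maintain methylation at CG dinucleotides, and CG methylation is then lost as cells divide. Germ cell genes and cancer-testis antigens, whose promoters are methylated in most adult tissues, are textbook examples of genes that are switched on when this methylation is removed. Built into RNA, the drug is also known to interfere with RNA metabolism and protein synthesis.

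At the higher dose a small set of germ cell genes, among them DAZL, GCNA, TKTL1 and FMR1NB, stood several log2 units above the lower dose. Several enzymes of sterol and fatty acid synthesis, among them SCD, stood below it, as did S100A4 and some chaperones of the endoplasmic reticulum. Among 18055 genes tested, 435 (2.41%) were higher and 610 (3.38%) lower at 1500 nM, together 5.79%, at a limma adjusted p under 0.05. Of these, 44 were higher and 28 lower by at least 2-fold. Without adjustment 3314 of the 18055 genes had a limma p under 0.05 in either direction, the background for unadjusted counts in this contrast. The median difference over all genes tested was 0.02 on the log2 scale, and the median gene had a 95% interval of ±0.24 around its difference. All 1045 called genes had arrays of the 2 doses that did not overlap, but so did 55.1% of the genes tested, against the 5.79% called. The counts rest on few arrays. With 1 array left out, a dose with a lone array was assumed to vary like the other groups. The counts were then 198 higher and 435 lower without 1500 nM replicate 1, 203 and 142 without 1500 nM replicate 2, 170 and 198 without 150 nM replicate 1, and 177 and 162 without 150 nM replicate 2.

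Across the genes tested, the 2 arrays at 1500 nM correlated with r = 0.9964 and those at 150 nM with r = 0.9981, while the pairs across doses lay between 0.9899 and 0.9927. Genes are not independent replicates, so these values describe the arrays only. Array medians of the whole series lay between 6.46 and 6.58 log2 units. The difference between the 3′ and 5′ probe sets of beta-actin, a sign of RNA length, was 0.04 and -0.01 at 1500 nM and -0.02 and 0.07 at 150 nM, so the doses overlapped in it. EPCAM, an adhesion protein that marks epithelia, was at 12.96 and 13.06 at 150 nM and 12.87 and 12.88 at 1500 nM. The summed log2 level of 12 epithelial markers was 120.8 to 121.9 in DMSO, 122.2 to 122.6 at 150 nM and 120.7 to 121.1 at 1500 nM, with 1 marker called higher (8.33% against the 2.41% of all genes) and 4 lower (33.3% against 3.38%). CDH1, the epithelial cadherin, was among these 4, with a difference of -0.56. Its call was lost without replicate 2 of either dose, at limma adjusted p = 0.0933 and 0.0627. None of 7 fibroblast, 7 blood cell and 8 keratinocyte markers was called in either direction by limma, while 3 keratinocyte markers and 0 of the others were higher at an unadjusted p under 0.05. The neuronal list had 1 of 10 called lower. The summed log2 levels at 150 nM were 50.4 to 50.5 for fibroblast, 49.0 to 49.4 for blood cell, 74.8 to 75.5 for neuronal and 54.7 to 55.1 for keratinocyte markers. At 1500 nM they were 50.5 to 51.2, 49.4 to 50.4, 74.8 to 74.9 and 55.5 to 56.3. The part of these markers in the results was not tested.

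Against DMSO the doses differed in how many genes they moved. At 1500 nM 1467 genes (8.13%) were higher and 1658 (9.18%) lower, together 17.3%. At 150 nM 186 (1.03%) were higher and 83 (0.46%) lower, together 1.49%. These contrasts share the DMSO arrays and each shares Aza arrays with the dose contrast, so they are only set side by side. The counts at 150 nM were 44 and 12 without its replicate 1, 48 and 15 without its replicate 2, 289 higher without DMSO replicate 2, and 54 lower without DMSO replicate 3 or 4. At 1500 nM there were 746 and 971 higher without its replicates 1 and 2, and 671 lower without its replicate 2. With the arrays brought to the same quantiles again the split at 150 nM was 182 higher and 155 lower, and after median centring it was 128 and 32.

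The promoters of 6 genes that rose are shown because loss of CG methylation is the known action of Aza. The sequences are those of RefSeq on GRCh38.p14, 5′ to 3′ on the strand of the gene, from 250 bases before to 50 bases after an annotated start, with each CG in capitals. DAZL lies at chr3:16605374-16605673 on the minus strand. On the plus strand are GCNA at chrX:71578187-71578486, TKTL1 at chrX:154295545-154295844, MAEL at chr1:166975332-166975631, MAGEA4 at chrX:151912224-151912523 and LCN2 at chr9:128149203-128149502. Where the table held several starts, the window listed at the top was taken.
DAZL: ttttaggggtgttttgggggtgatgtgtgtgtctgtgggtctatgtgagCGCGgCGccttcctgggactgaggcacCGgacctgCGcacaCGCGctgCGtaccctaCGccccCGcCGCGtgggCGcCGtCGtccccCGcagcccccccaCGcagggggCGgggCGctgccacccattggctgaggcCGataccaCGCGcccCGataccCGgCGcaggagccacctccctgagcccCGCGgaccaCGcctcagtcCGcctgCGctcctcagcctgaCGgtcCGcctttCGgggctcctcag
GCNA: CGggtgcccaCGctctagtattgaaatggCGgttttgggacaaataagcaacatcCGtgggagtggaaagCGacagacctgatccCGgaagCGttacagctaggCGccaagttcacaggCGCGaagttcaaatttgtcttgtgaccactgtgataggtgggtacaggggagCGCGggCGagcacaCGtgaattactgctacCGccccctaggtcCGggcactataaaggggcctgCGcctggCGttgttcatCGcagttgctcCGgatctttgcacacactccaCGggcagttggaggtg
TKTL1: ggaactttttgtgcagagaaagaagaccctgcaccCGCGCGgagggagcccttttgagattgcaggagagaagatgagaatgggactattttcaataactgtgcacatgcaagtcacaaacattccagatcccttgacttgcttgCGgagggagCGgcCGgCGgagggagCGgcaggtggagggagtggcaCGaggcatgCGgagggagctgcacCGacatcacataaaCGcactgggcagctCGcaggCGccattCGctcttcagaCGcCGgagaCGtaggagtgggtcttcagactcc
MAEL: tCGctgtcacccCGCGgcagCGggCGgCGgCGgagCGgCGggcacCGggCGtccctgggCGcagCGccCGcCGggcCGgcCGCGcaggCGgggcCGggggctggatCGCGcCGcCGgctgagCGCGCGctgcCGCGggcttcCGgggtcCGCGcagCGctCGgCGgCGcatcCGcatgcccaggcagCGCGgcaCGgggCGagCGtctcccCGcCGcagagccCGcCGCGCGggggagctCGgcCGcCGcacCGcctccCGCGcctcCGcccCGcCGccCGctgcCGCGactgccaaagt
MAGEA4: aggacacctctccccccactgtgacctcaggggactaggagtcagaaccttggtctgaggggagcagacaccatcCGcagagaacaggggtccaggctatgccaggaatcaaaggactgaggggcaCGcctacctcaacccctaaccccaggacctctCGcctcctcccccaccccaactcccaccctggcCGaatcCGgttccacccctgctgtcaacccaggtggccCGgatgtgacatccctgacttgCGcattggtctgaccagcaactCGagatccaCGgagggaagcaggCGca
LCN2: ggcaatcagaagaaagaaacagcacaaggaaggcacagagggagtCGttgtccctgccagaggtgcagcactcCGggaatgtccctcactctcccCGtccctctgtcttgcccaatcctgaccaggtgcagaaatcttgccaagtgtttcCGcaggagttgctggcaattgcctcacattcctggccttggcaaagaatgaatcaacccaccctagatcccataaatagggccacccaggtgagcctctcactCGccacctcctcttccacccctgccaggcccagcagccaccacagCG
The windows differ widely in CG content, with 60 CG in MAEL, 33 in DAZL, 21 in GCNA, 18 in TKTL1, 10 in MAGEA4 and 6 in LCN2. The median was 21 CG over 13 of the 15 genes with the largest rises that matched the table, 21.5 over 14 of the 15 with the largest falls, and 23.0 over the 14136 of 18055 tested genes that matched. The leading rises ranged from 5 to 60 CG and the leading falls from 1 to 55, so the ranges overlapped almost wholly. Methylation itself was not measured.

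DAZL, which binds RNA in developing germ cells, had the largest fitted difference, a rank that rests on 150 nM levels under 5. Its level was 3.87 and 3.87 log2 units at 150 nM and 8.99 and 9.03 at 1500 nM, beside 3.99, 4.51, 4.19 and 4.23 on the DMSO arrays. The 150 nM arrays lay below every DMSO array and the 1500 nM arrays far above, with a dose difference of 5.14 ± 0.21 (SE, limma adjusted p = 6.33e-12). A level under 5 cannot be told from background here, since the table holds no detection calls, so the size of such a fold is not settled. This also holds for FMR1NB, a cancer-testis antigen of the X chromosome, and BEX4, a member of the brain-expressed X-linked family. FMR1NB was at 3.85 and 3.54 at 150 nM and 7.62 and 7.31 at 1500 nM, and BEX4 at 4.13 and 3.98 against 6.17 and 5.71. Their differences were 3.77 ± 0.20 (SE) and 1.89 ± 0.20 (SE).

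GCNA, a nuclear protein of germ cells, was at 5.54 and 5.19 at 150 nM and at 9.78 and 9.43 at 1500 nM, beside 4.89 to 5.47 in DMSO. The lower dose thus left GCNA near the DMSO level. MAEL, a factor of the piRNA pathway that silences transposons in the germ line, went from 5.38 and 5.12 to 8.90 and 8.82, beside 5.47 to 5.71 in DMSO. The differences of GCNA and MAEL were 4.24 ± 0.17 (SE, limma adjusted p = 3.89e-12) and 3.61 ± 0.13 (SE, limma adjusted p = 1.19e-12). ZFP42, a zinc finger protein of early embryonic and germ cells, went from 5.24 and 5.40 to 7.94 and 7.98, by a probe set of a kind that can match several transcripts, called cross-matching below. Its other 2 probe sets also rose, by 0.67 and 1.62.

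TKTL1 and MAGEA4 were already above DMSO at the lower dose. TKTL1, a transketolase-like protein counted among the cancer-testis antigens, was at 4.70 to 5.54 in DMSO, at 7.13 and 6.73 at 150 nM and at 11.02 and 10.93 at 1500 nM. The 3 groups did not overlap, with 1.69 ± 0.16 (SE, limma adjusted p = 2.83e-06) from DMSO to 150 nM and 4.04 ± 0.18 (SE, limma adjusted p = 1.63e-11) between the doses, or 16.5-fold. MAGEA4, an antigen of the X-linked MAGE-A family, was at 5.47 to 5.72, then 6.47 and 6.47, then 9.68 and 9.63. It stood 0.85 ± 0.16 (SE, limma adjusted p = 0.008) above DMSO at 150 nM and rose by a further 3.19 ± 0.19 (SE, limma adjusted p = 9.03e-10). MAGEA1 went from 6.79 and 7.19 to 9.23 and 9.04, and its 150 nM level did not pass against DMSO (limma adjusted p = 0.0645).

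SSX1, another X-linked antigen, was at 7.12 and 6.50 at 150 nM, the wider pair among these genes, and at 9.31 and 9.17 at 1500 nM. These SSX1 values came from a cross-matching probe set, with a difference of 2.43. Its other probe set, also cross-matching, rose by 0.955 (limma adjusted p = 0.0291), so the size of its rise is not settled. LIN28B, which blocks maturation of let-7 microRNAs, went from 5.22 and 4.83 to 7.46 and 7.32. SYCP3, a component of the axis of meiotic chromosomes, went from 5.92 and 5.90 to 8.03 and 8.0, and COX8C, the testis form of a cytochrome c oxidase subunit, from 5.03 and 5.01 to 7.11 and 7.06. None of these 4 genes passed at 150 nM against DMSO (limma adjusted p from 0.371 to 0.89), and in all 4 the 1500 nM arrays lay above every DMSO array. UCHL1, a deubiquitinase of neurons and testis, and LCN2, a secreted iron-siderophore carrier, are better known outside the germ line. LCN2 was at 6.68 and 6.60, then 8.55 and 8.53, a difference of 1.90 ± 0.10 (SE). UCHL1 rose from 6.63 and 6.86 to 8.87 and 8.85 by a cross-matching probe set, while its other probe set showed 0.08 (limma adjusted p = 0.767), so its rise rests on 1 probe set. The values of TKTL1, MAGEA1, SYCP3 and BEX4 rest on cross-matching probe sets only. All 15 genes with the largest rises were also called with each of the 4 arrays left out in turn.

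**Figure D1:**
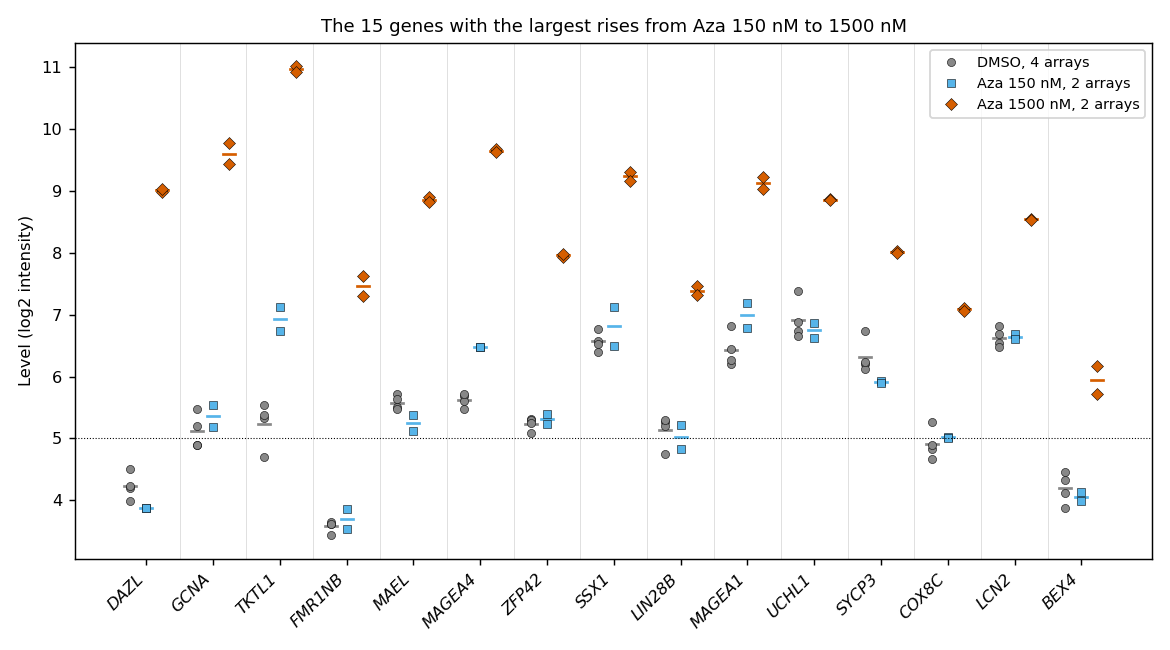
Level of the 15 genes with the largest rises (x axis) in log2 intensity (y axis) on each DMSO, Aza 150 nM and Aza 1500 nM array, with short lines at the group means and a dotted line at 5, the filter value. The 1500 nM arrays lie above all others in every gene shown, and the 150 nM arrays lie well above DMSO in TKTL1 and MAGEA4, at 6.73 to 7.13 and 6.47.

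Of 35 cancer-testis antigens with a tested probe set, 16 rose and 0 fell (18 and 1 at an unadjusted p under 0.05 by limma), with a median difference of 0.29 against 0.02 for all genes and 45.7% of members called against a background of 2.41%. Apart from GCNA, TKTL1, MAGEA4, SSX1 and MAGEA1, the called members rose by 0.29 (MAGEA6) to 1.85 (MAGEA8). Members of the MAGE-A family are close in sequence and their probe sets can share transcripts. Of the 25 members that had a value with cross-matching probe sets left out, 7 rose. Of 41 germ cell RNA, piRNA and meiosis genes, 11 rose (26.8%) and 0 fell (15 and 0 at that unadjusted p), with a median of 0.16, and 7 of 32 rose with cross-matching probe sets left out. The filter raises these shares, since members low on all arrays are dropped. Genes such as DAZL, under 5 in DMSO and at Aza 150 nM, pass it only through groups where they are high. Without the filter 15 of 37 cancer-testis antigens and 11 of 51 germ cell genes rose. With 1 Aza array left out, 11 or 12 cancer-testis antigens and 7 to 9 germ cell genes were called, with 7 germ cell genes without 1500 nM replicate 1 or 150 nM replicate 2. No member of either list fell under any of these 4 settings. At 150 nM against DMSO, 3 cancer-testis antigens and 1 germ cell gene were higher, against the background of 1.03%.

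Of 54 genes known to be methylated in colorectal cancer, 5 rose (9.26% against 2.41% of all genes) and 1 fell (1.85% against 3.38%), with a median of 0.08. Of the 40 with a value with cross-matching probe sets left out, 2 rose, and 3 rose with any of the 4 arrays left out, while 2 fell without 1500 nM replicate 1 and 0 without the others. VIM, the intermediate filament of mesenchymal cells, was at 7.83 to 8.10 in DMSO, 9.07 and 8.99 at 150 nM and 10.69 and 10.64 at 1500 nM. It was thus raised at each dose, by 1.08 ± 0.07 (SE, limma adjusted p = 4.75e-08) over DMSO and then by 1.64 ± 0.08 (SE, limma adjusted p = 1.21e-10). The only kept VIM probe set was cross-matching. TFPI2, a secreted protease inhibitor, went from 5.24 and 5.61 to 6.75 and 6.57 by 1 probe set, and its other probe set showed 0.16 (limma adjusted p = 0.666). CDO1, a cysteine dioxygenase, rose by 0.70, a call lost with any of the 4 arrays left out (limma adjusted p from 0.059 to 0.17). CDKN2A, the cell cycle inhibitor p16 named after its values were seen, was the gene that fell, from 9.98 and 10.05 to 9.80 and 9.70. Its call was lost without 1500 nM replicate 2 and without either 150 nM array (limma adjusted p from 0.0897 to 0.274).

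The enzymes that Aza targets were not called by their brightest probe sets. DNMT1, the maintenance methyltransferase, was at 10.52 and 10.44 at 150 nM and 10.46 and 10.30 at 1500 nM, a difference of -0.10 ± 0.11 (SE, limma adjusted p = 0.692). DNMT3A and UHRF1, which guides DNMT1 to copied DNA, each had a difference of -0.10 as well. The DNMT3A probe sets disagreed, since another rose by 0.34 (limma adjusted p = 0.0447) and the third showed 0.04, and their mean was 0.09 (limma adjusted p = 0.558). DNMT3B had -0.33 ± 0.17 (SE, limma adjusted p = 0.323). It passed when only the arrays of the contrast were fitted, at limma adjusted p = 0.0267. Of 22 genes of the methylation machinery 1 rose and 1 fell (4.55% each, against 2.41% and 3.38% of all genes). Their median of -0.16 lies below the 0.02 of all genes. The gene that fell was TRDMT1, a methyltransferase of transfer RNA. Its mean over probe sets was -0.19 (limma adjusted p = 0.152). Of its probe sets 1 showed 0.08 (limma adjusted p = 0.872), while the brightest fell by 0.46 and was called. That call was lost without 1500 nM replicate 2 or either 150 nM array (limma adjusted p from 0.0666 to 0.239).

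Among genes that fell, S100A4 had the largest difference. S100A4, a calcium-binding protein of motile cells, was at 11.16 to 11.33 in DMSO, 11.09 and 11.17 at 150 nM and 9.61 and 9.38 at 1500 nM. The lower dose overlapped DMSO and the higher dose lay below both, with a difference of -1.64 ± 0.08 (SE, limma adjusted p = 1.13e-10), or 3.11-fold lower. SCD, the desaturase that makes monounsaturated fatty acids, was at 12.59 and 12.68 and then 11.31 and 11.20, beside 12.55 to 12.86 in DMSO. All 4 SCD probe sets fell, and the one with the highest mean did so by 1.38 ± 0.10 (SE, limma adjusted p = 1.23e-08). All 4 were cross-matching, as was the only kept probe set of S100A4. TNNC1, troponin C of slow and cardiac muscle, took another course. It was at 6.69 to 6.89 in DMSO, 7.69 and 7.84 at 150 nM and 6.34 and 6.27 at 1500 nM, so the lower dose lay above DMSO and the higher dose below it. Both steps passed, with 0.98 ± 0.08 (SE, limma adjusted p = 2.42e-07) from DMSO to 150 nM and -0.48 ± 0.08 (SE, limma adjusted p = 0.000142) from DMSO to 1500 nM.

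PCDH7, a protocadherin, went from 10.63 and 10.61 to 9.17 and 8.95 by its brightest probe set, below 11.17 to 11.56 in DMSO. Its 5 probe sets disagreed: 2 fell, by 1.56 and 0.72, another rose by 1.34, and 2 did not pass, so no direction holds for the gene as a whole. Its mean over probe sets was -0.09 (limma adjusted p = 0.702). NR2F1, an orphan nuclear receptor, went from 9.04 and 9.06 to 7.79 and 7.60. REL, a subunit of NF-kappa-B, went from 6.34 and 6.23 to 4.98 and 5.04, and although all 4 of its probe sets had this sign, the other 3 did not pass. ARID5B, a DNA-binding cofactor, and GPM6A, a neuronal membrane glycoprotein, fell by 1.34 and 1.26, each with 2 of 3 probe sets in that direction, although for ARID5B only the brightest passed. For SCD, S100A4, TNNC1, PCDH7, NR2F1, ARID5B, REL and GPM6A the call held with each array left out.

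The other 7 of the 15 genes with the largest falls lost their call when at least 1 array was left out. SAT1, which acetylates polyamines for breakdown, was at 12.41 and 12.62 and then 11.18 and 11.11 by its brightest probe set. Its other 2 probe sets also fell, by 1.53 (limma adjusted p = 1.03e-07) and 1.56 (6.63e-11). SELENOP, a secreted selenium carrier, was at 8.09 and 8.27 and then 7.06 and 7.02. In both genes DMSO replicates 3 and 4 lay above replicates 1 and 2, for SAT1 at 12.91 and 12.71 against 12.08 and 12.03. Most of the other leading falls had this order in DMSO, as did the beta-actin 3′ minus 5′ value, at 0.24 and 0.15 against -0.03 and 0.00. The part of RNA length in this was not tested. CREBZF, VASH2, AKAP9, CCDC88A and ANKRD12 fell by 1.22, 1.21, 1.21, 1.16 and 1.16. All 3 ANKRD12 probe sets fell. The other 2 probe sets of VASH2, at 0.29 and -0.39, and of CCDC88A, at -0.14 and -0.44, did not pass (limma adjusted p from 0.103 to 0.677). CREBZF showed -0.17 (limma adjusted p = 0.59) with cross-matching probe sets left out, and AKAP9 lost its call after median centring (0.0512). The values of SAT1, SELENOP and AKAP9 rest on cross-matching probe sets only. Calls were lost without 1500 nM replicate 2 for SAT1, CREBZF, VASH2, AKAP9, CCDC88A and SELENOP (limma adjusted p from 0.0653 to 0.36). Without 150 nM replicate 1 they were lost for CREBZF, VASH2, AKAP9, CCDC88A and ANKRD12 (from 0.0609 to 0.23). Without 150 nM replicate 2 they were lost for SAT1, CREBZF, VASH2, AKAP9, CCDC88A and SELENOP (from 0.0714 to 0.128), and without 1500 nM replicate 1 for SELENOP (0.0513).

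**Figure D2:**
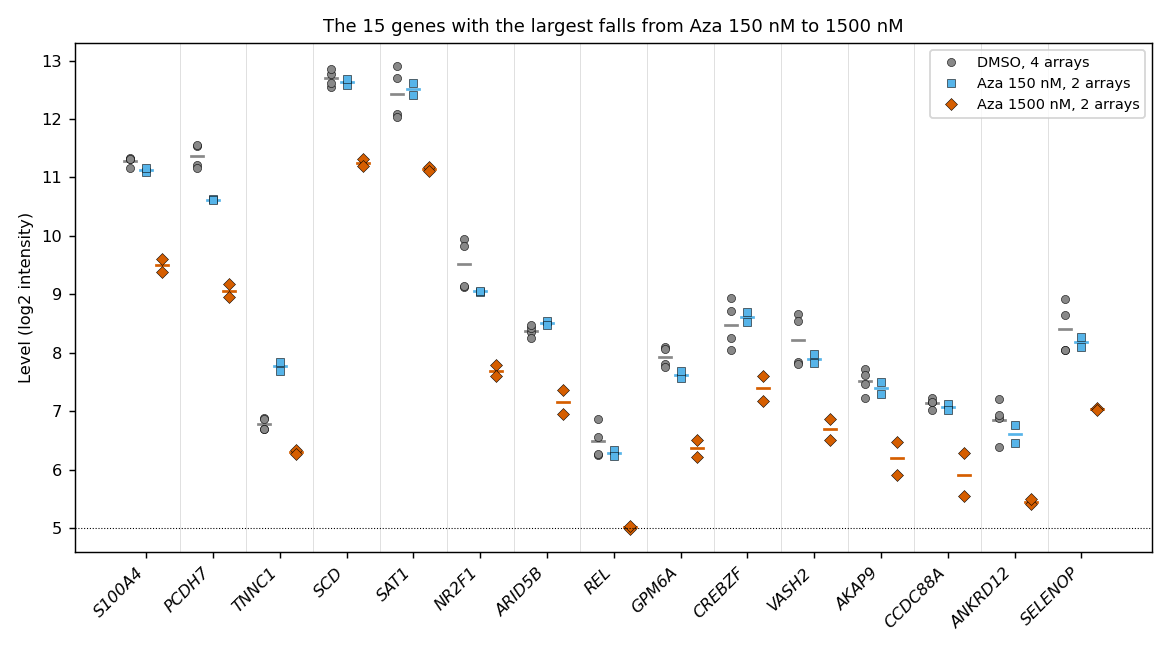
Level of the 15 genes with the largest falls (x axis) in log2 intensity (y axis) on each DMSO, Aza 150 nM and Aza 1500 nM array, with short lines at the group means and a dotted line at 5. TNNC1 is the gene whose 150 nM arrays, at 7.69 and 7.84, lie above DMSO while its 1500 nM arrays lie below. In all genes shown but S100A4, TNNC1 and CCDC88A, DMSO replicates 3 and 4 lie above replicates 1 and 2, most widely in SAT1, NR2F1, CREBZF, VASH2 and SELENOP.

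Genes of cholesterol and fatty acid synthesis were the list with the largest share of falls. Of 35 tested, 16 fell and 0 rose, 45.7% against a background of 3.38% (22 and 0 at an unadjusted p under 0.05 by limma), and the median was -0.31 against 0.02 for all genes. STARD4, a cytosolic sterol carrier, went from 9.78 and 9.80 to 8.94 and 8.83, a difference of -0.91 ± 0.09 (SE, limma adjusted p = 2.49e-06). ACAT2, the cytosolic thiolase that makes acetoacetyl-CoA, went from 10.30 and 10.27 to 9.62 and 9.51 by a cross-matching probe set only. IDI1, an isomerase of isoprenoid units named after its values were seen, went from 11.38 and 11.34 to 10.86 and 10.81. When cross-matching probe sets were left out, IDI1 showed -0.01 (limma adjusted p = 0.985). At 150 nM 1 member was higher and 0 lower against DMSO, where 1.03% and 0.46% of all genes were. At 1500 nM 1 was higher and 18 lower, against 8.13% and 9.18% of all genes.

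INSIG1, which holds the sterol sensor in the endoplasmic reticulum, and HMGCS1, the synthase at the start of the mevalonate pathway, fell by 0.88 and 0.69. The INSIG1 call was lost without replicate 2 of 1500 nM (limma adjusted p = 0.131) or of 150 nM (0.0995), and the HMGCS1 call likewise (0.114 and 0.12). The sterol transcription factors SREBF1 and SREBF2 and the enzyme LSS, named after their values were seen, fell by 0.53, 0.39 and 0.40. SREBF1 lost its call without 1500 nM replicate 2 or 150 nM replicate 1 (limma adjusted p = 0.0825 and 0.114) and LSS without replicate 2 of either dose (0.0603 and 0.0583). SREBF2 lost it with any of the 4 arrays left out (from 0.0858 to 0.184) and with the arrays brought to the same quantiles again (0.0651). For the whole list, 13 members fell without 1500 nM replicate 1, 6 without 1500 nM replicate 2, 11 without 150 nM replicate 1 and 7 without 150 nM replicate 2, and 0 rose in each case. With quantiles matched again 16 fell, after median centring 14, and 9 of the 25 members with a value with cross-matching probe sets left out. The letters TCACNCCAC, a sterol response element, were found on either strand in the promoter window of 1 of 32 members of the list (3.12%), SREBF2, and in 1.09% of all windows of tested genes.

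**Figure D3:**
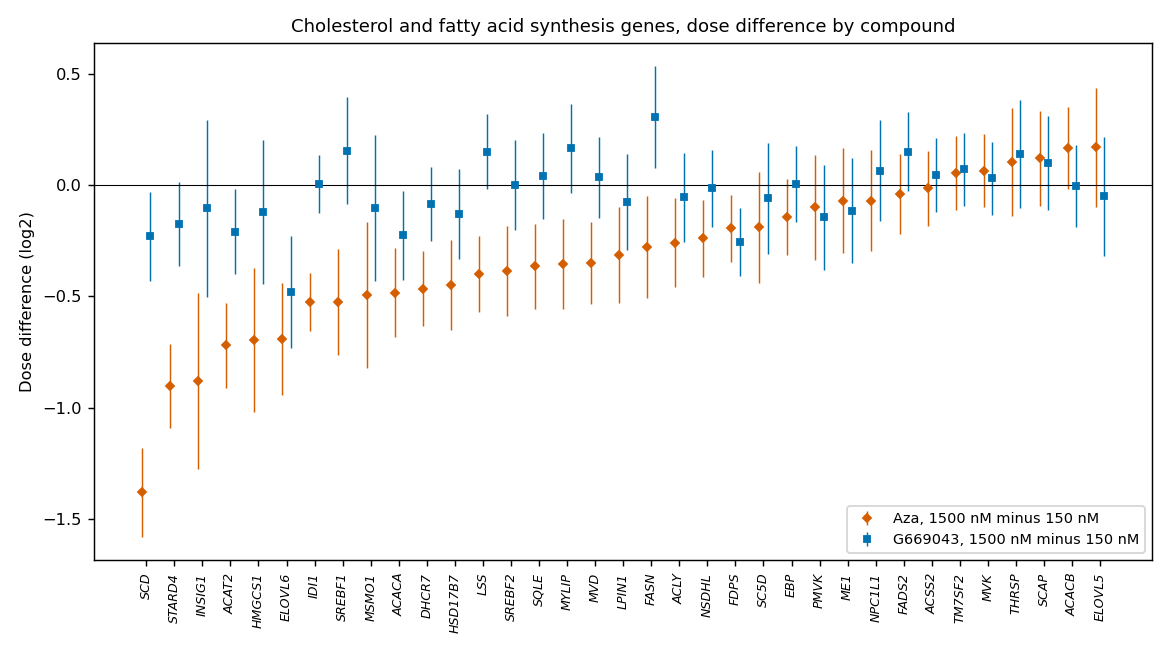
Difference between 1500 nM and 150 nM (y axis, log2) for the 35 tested genes of cholesterol and fatty acid synthesis (x axis), with Aza as diamonds and G669043 as squares and 95% intervals from limma. The Aza values run from -1.38 at SCD to 0.17, with a median of -0.31, and the G669043 values have a median of -0.02.

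Some genes of the amino acid and endoplasmic reticulum stress responses fell, 7 of 41 and 6 of 27. ATF4, the transcription factor that drives amino acid supply genes under stress, went from 12.18 and 12.10 to 11.62 and 11.54, beside 12.40 to 12.69 in DMSO. The fall was graded, by 0.40 ± 0.08 (SE, limma adjusted p = 0.0109) from DMSO to 150 nM and by a further 0.56 ± 0.09 (SE, limma adjusted p = 0.000789). Its target DDIT4, an inhibitor of mTORC1, went from 11.07 to 11.60 in DMSO to 10.47 and 10.48 and then 9.78 and 9.57. The DDIT4 values came from a cross-matching probe set. SLC7A11, the cystine transporter, went from 10.08 and 10.09 to 9.28 and 9.28. Of the 41 genes of the amino acid response list, 7 fell (17.1% against 3.38%) and 1 rose (2.44% against 2.41%), with a median of -0.06 and 24 of 41 below 0. Of the 27 with a value with cross-matching probe sets left out, 4 fell. The count of falls was 7, 4, 4 and 3 without 1500 nM replicates 1 and 2 and 150 nM replicates 1 and 2. The gene that rose was ASNS, asparagine synthetase, named after its values were seen. It went from 12.02 and 12.14 to 12.55 and 12.53, and lost its call with any of the 4 arrays left out (limma adjusted p from 0.0552 to 0.166) and after median centring (0.0923). Among 17 aminoacyl-tRNA synthetases, 1 rose (5.88% against 2.41% of all genes) and 2 fell (11.8% against 3.38%), with a median of 0.04. Both falls lost their calls with any of the 4 arrays left out, and the rise lost its call without 150 nM replicate 2.

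HSP90B1, the HSP90 chaperone of the endoplasmic reticulum, was at 11.21 and 11.21 at 150 nM, inside the DMSO range of 11.07 to 11.38, and at 10.47 and 10.29 at 1500 nM. The HSP90B1 values rest on cross-matching probe sets only. Of 27 genes of the unfolded protein response, 6 fell and 0 rose (10 and 2 at an unadjusted p under 0.05 by limma), 22.2% against the background of 3.38%, with a median of -0.17. These included the disulfide isomerases PDIA4, from 10.96 and 10.95 to 10.47 and 10.30, and PDIA6, from 12.15 and 12.14 to 11.82 and 11.78. PDIA3 fell by 0.52, a call lost without 1500 nM replicate 2 or either 150 nM array (limma adjusted p from 0.0552 to 0.0757). CREB3L2, a membrane-bound transcription factor, fell by 0.51, but showed -0.06 (limma adjusted p = 0.834) with cross-matching probe sets left out. PDIA6 kept a difference of -0.34 in that setting but lost its call (limma adjusted p = 0.0981). Of the 22 members with a value in that setting, 4 fell. With 1 array left out, 4 or 5 members of the list fell.

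The NRF2 list, of genes for redox defence, moved both ways, with 2 of 29 higher (6.90% against 2.41%) and 3 lower (10.3% against 3.38%), and 1 of 23 higher with cross-matching probe sets left out. CBR1, a carbonyl reductase, went from 4.93 and 5.12 to 6.81 and 6.76, beside 5.05 to 5.32 in DMSO, a difference of 1.76 ± 0.13 (SE, limma adjusted p = 3.69e-08). The size of this fold is not settled, since the level of 4.93 lies under 5. AKR1B10, an aldo-keto reductase, went from 6.38 and 6.39 to 7.32 and 7.34 by a cross-matching probe set. In both genes the lower dose overlapped DMSO.

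Of 69 tested targets of p53, the transcription factor of the DNA damage response, 11 rose (15.9% against 2.41% of all genes) and 2 fell (2.90% against 3.38%), with a median of 0.12. Of the 54 with a value with cross-matching probe sets left out, 6 rose. CDKN1A, the cell cycle inhibitor p21 named after its values were seen, was at 9.97 to 10.29 in DMSO, 10.72 and 10.65 at 150 nM and 11.29 and 11.23 at 1500 nM. The 3 groups did not overlap, and CDKN1A rose by 0.52 ± 0.07 (SE, limma adjusted p = 0.000475) from DMSO to 150 nM and by 0.57 ± 0.08 (SE, limma adjusted p = 0.000277) between the doses. TP53I3, a quinone oxidoreductase induced by p53, went from 8.28 and 8.44 to 8.99 and 8.91. GDF15, a secreted stress cytokine, rose by 1.00 and FAS, a death receptor, by 0.71. When cross-matching probe sets were left out, GDF15 showed 0.11 (limma adjusted p = 0.725) and FAS 0.24 (0.286). The values of CDKN1A and TP53I3 rest on cross-matching probe sets only. The targets that fell were KITLG, the KIT ligand, from 13.24 and 13.25 to 12.40 and 12.44, and CCNG2, an unconventional cyclin, from 9.17 and 9.33 to 8.42 and 8.27. Without 1 array 7 or 8 members rose, 7 without 150 nM replicate 2. With quantiles matched again 19 rose, while the rises over all genes went from 435 to 632. Among 33 apoptosis regulators FAS and BIK, a pro-death BCL2 relative, rose (6.06% against 2.41% of all genes) and 0 fell.

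The list for S phase and DNA replication held 63 genes, of which 2 rose (3.17%, near the 2.41% of all genes) and 0 fell. By limma 3 were higher and 5 lower at an unadjusted p under 0.05. The genes that rose were CCNE1, cyclin E1, from 9.88 and 9.84 to 10.28 and 10.27, and RRM2, a ribonucleotide reductase subunit, by 0.21. The RRM2 call was lost without 1500 nM replicate 2 or either 150 nM array (limma adjusted p from 0.0711 to 0.165), without the trend (0.0808) and with probe sets averaged (0.14, limma adjusted p = 0.378). RRM2 showed 0.06 (limma adjusted p = 0.886) with cross-matching probe sets left out. Among 84 genes for G2/M and mitosis, 5 (5.95% against 3.38%) fell and 2 (2.38% against 2.41%) rose, with a median of -0.17 against 0.02 for all genes and 63 of 84 below 0. At an unadjusted p under 0.05 by limma 25 were lower and 5 higher, where 3314 of the 18055 genes tested passed in either direction. The count of falls varied with the fit, from 2 of 62 with cross-matching probe sets left out to 38 in a fit of the arrays of the contrast alone, with 9 under matched quantiles, 12 with the actin covariate, 14 over the treated arrays and 15 with a replicate block. The falls over all genes varied too. In the same order they numbered 438, 1827, 686, 1084, 959 and 1052, against 610 in the main fit. The largest falls were those of the mitotic motors CENPE, from 7.49 and 7.14 to 6.12 and 6.31, and KIF15, from 7.76 and 7.75 to 7.08 and 6.70. CENPE lost its call without 150 nM replicate 1 (limma adjusted p = 0.0721), and KIF15 without 1500 nM replicate 2 (0.172) or either 150 nM array (0.0723 and 0.0714). For the list, 4, 1, 0 and 1 members fell without 1500 nM replicates 1 and 2 and 150 nM replicates 1 and 2.

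Among 45 genes of nucleoside uptake and metabolism, the group that handles Aza itself, 6 rose (13.3% against 2.41%) and 2 fell (4.44% against 3.38%). UPP1, uridine phosphorylase, was at 7.75 to 8.38 in DMSO, 8.77 and 8.76 at 150 nM and 9.95 and 9.84 at 1500 nM, so it rose at each step. CDA, cytidine deaminase, the enzyme that inactivates cytidine analogues, was at 7.49 to 7.78 in DMSO, 8.01 and 7.98 at 150 nM and 7.50 and 7.37 at 1500 nM. CDA was thus above DMSO at the lower dose (0.34, limma adjusted p = 0.0215) and fell by 0.56 ± 0.09 (SE, limma adjusted p = 0.000519) between the doses. NT5E, a surface 5′-nucleotidase, rose by 0.83, a call lost with any of the 4 arrays left out (limma adjusted p from 0.116 to 0.179) and after median centring (0.0881). With 1 array left out, 1 or 2 members of the list rose, each of the 4 arrays lowering the count.

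Of 52 interferon-stimulated and RNA-sensing genes 5 fell (9.62% against 3.38%) and 1 rose (1.92% against 2.41%), with a median of -0.05, against 0.02 for all genes. IFIT1, an antiviral RNA-binding protein, was at 7.39 and 7.48 and then 6.25 and 6.60, below the DMSO range of 7.28 to 7.42. IFI6, a mitochondrial antiviral protein, went from 8.14 and 8.20 to 7.50 and 7.49. IRF9, a subunit of the interferon-activated transcription factor, fell by 0.54, lost without 1500 nM replicate 1 or either 150 nM array (limma adjusted p from 0.0689 to 0.141). IRF7, another interferon regulatory factor, was the member that rose, from 8.43 and 8.56 to 9.34 and 9.20, by a cross-matching probe set. That call was lost without replicate 1 of 1500 nM (limma adjusted p = 0.0604) or of 150 nM (0.0786). Without 1 array 2 or 3 members fell, each array lowering the count.

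Of 54 ribosome biogenesis genes 7 rose (13% against 2.41%), by 0.20 to 0.53, and 0 fell. They numbered 0, 3, 1 and 0 without 1500 nM replicates 1 and 2 and 150 nM replicates 1 and 2, 1 after median centring, 4 with probe sets averaged, and 4 of 46 with cross-matching probe sets left out. Of 18 genes of MHC class I presentation 3 fell (16.7% against 3.38%) and 1 rose (5.56% against 2.41%). Both MHC counts were lower with any Aza array left out. The MHC median was -0.01, and 4 members were higher and 4 lower at an unadjusted p under 0.05 by limma. Of 27 histones 2 rose (7.41%). H2BC12, a replication-linked H2B, rose by 0.60, lost without either 1500 nM array or 150 nM replicate 1 (limma adjusted p from 0.0894 to 0.235) and after median centring (0.0739). Of 39 genes of glycolysis and hypoxia 2 rose and 2 fell (5.13% each), among them ALDOC, an aldolase, from 8.31 and 8.42 to 7.59 and 7.32. Of 26 imprinted genes 1 rose and 1 fell (3.85% each). The latter was CDKN1C, the inhibitor p57, from 8.88 and 8.92 to 8.48 and 8.46, back into the DMSO range of 8.43 to 8.63. Of 34 intestinal genes 1 rose, KRT20, a keratin of differentiated gut epithelium, from 6.21 and 6.26 to 7.13 and 7.01, and 1 fell (2.94% each). Of 33 mesenchymal and cytoskeletal genes VIM rose (3.03%) and 3 fell (9.09% against 3.38%), among them S100A4 and LGALS1, galectin 1, which went from 13.76 and 13.76 to 13.32 and 13.32. When cross-matching probe sets were left out, 1 of 16 histones and 0 of 22 glycolysis genes rose, and 1 of 28 mesenchymal genes fell.

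**Figure D4:**
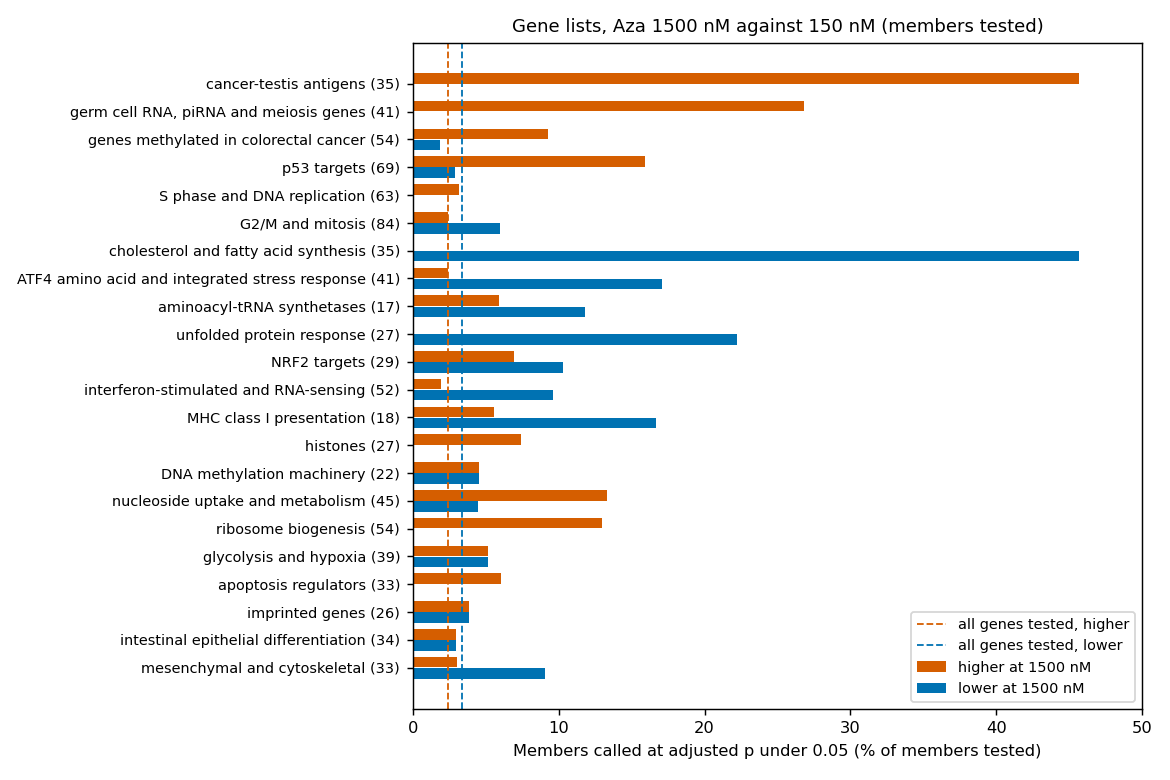
Share of tested members called higher (orange) or lower (blue) at Aza 1500 nM against 150 nM (x axis, percent) for 22 gene lists (y axis, with the number tested), with dashed lines at the shares of all genes tested, 2.41% and 3.38%. Cancer-testis antigens reach 45.7% higher and cholesterol and fatty acid synthesis genes 45.7% lower.

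G669043 was given at the same doses, 1500 nM and 150 nM, and shares no array with Aza, so the dose differences of the compounds could be set against each other in 1 test. The dose contrast of G669043 called 306 genes higher (1.69%) and 393 lower (2.18%), together 3.87%, or 382 and 255 with quantiles matched again. With any of its 4 arrays left out there were 121 to 162 higher and 94 to 123 lower. The beta-actin 3′ minus 5′ value was 0.07 and 0.34 at G669043 1500 nM and 0.11 and 0.08 at 150 nM, and with it as a covariate 907 genes were higher and 1863 lower. Its part in the G669043 counts was not tested. Both compounds called 123 genes higher, 28.3% of those of Aza and 40.2% of those of G669043, and 115 lower, 18.9% and 29.3%. Of the genes that Aza called, 76.6% of the higher and 87.2% of the lower had the same sign with G669043, and over all genes r was 0.56 across genes. Calls in opposite directions were made for 1 gene that rose with Aza and for 6 that fell. The gene that rose was FAM216A, named after its values were seen, with 0.30 for Aza and -0.37 for G669043. Its Aza call was lost with any of the 4 Aza arrays left out (limma adjusted p from 0.0818 to 0.133) and after median centring (0.102).

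The difference of the dose differences passed for 81 genes (0.449%), with 26 (0.144%) higher and 55 (0.305%) lower for Aza. With any of the 8 arrays left out, 7 to 13 were higher and 31 to 44 lower. The median gene had a 95% interval of ±0.34 around this value. Without adjustment 1788 of 18055 genes had a limma p under 0.05 in this test, and 2985 in the dose contrast of G669043. A gene that did not pass is not shown to respond alike. MAEL, for example, rose by 3.61 with Aza and 3.51 with G669043, with a 95% interval of the difference from -0.29 to 0.49. For FMR1NB the interval was -0.40 to 0.78 and for SSX1 it was -0.49 to 0.33.

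The genes with the largest shortfall for Aza were GJA1, SRGN, DHRS2, SPARC and SUSD2. DHRS2, a mitochondrial dehydrogenase, was at 9.47 to 9.81 in DMSO, 11.19 and 11.27 at Aza 150 nM and 11.42 and 11.31 at Aza 1500 nM. With G669043 it was at 10.09 and 9.79 at 150 nM and 12.36 and 12.52 at 1500 nM. Aza at 150 nM thus already stood 1.61 ± 0.10 (SE, limma adjusted p = 1.31e-08) above DMSO and changed little with dose (0.14, limma adjusted p = 0.58), and the difference between the dose differences, Aza minus G669043, was -2.36 (limma adjusted p = 8.89e-08). SRGN, the proteoglycan serglycin, had the same order, at 6.02 and 6.13 and then 6.33 and 6.21 with Aza, and at 4.81 and 4.80 and then 7.49 and 7.52 with G669043. GJA1, the gap junction protein connexin 43, was at 4.84 and 5.09 and then 5.12 and 4.61 with Aza, and at 3.61 and 3.65 and then 6.13 and 6.22 with G669043. The lowest levels of GJA1 and SRGN lie under 5, where the size of a fold is not settled. SPARC, a matrix protein, was at 6.08 and 6.50 and then 7.09 and 6.99 with Aza, and at 5.20 and 5.14 and then 8.17 and 8.21 with G669043. For SPARC the difference was -0.38 (limma adjusted p = 0.588) with cross-matching probe sets left out.

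SUSD2 and CLIC3 moved in opposite directions with the compounds. CLIC3, an intracellular chloride channel protein named after its values were seen, went from 7.79 and 7.90 to 7.07 and 6.83 with Aza and from 7.28 and 6.99 to 8.21 and 8.19 with G669043. SUSD2, a membrane protein with a sushi domain, rose by 1.51 with G669043 and fell by 0.61 with Aza. The Aza call of SUSD2 was lost without 1500 nM replicate 1 or either 150 nM array (limma adjusted p from 0.101 to 0.233). CDKN1C also fell by 0.43 with Aza and rose by 0.36 with G669043, although its Aza call was lost when probe sets were averaged (limma adjusted p = 0.0598).

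Some germ cell genes rose further with G669043. TKTL1 went from 5.54 and 5.18 to 11.36 and 11.41 with G669043, a rise of 6.03, and the Aza rise minus this one was -1.98 ± 0.26 (SE, limma adjusted p = 0.000399). At 1500 nM the 2 compounds thus had close TKTL1 levels, and the gap lay at 150 nM, where Aza was higher. MAGEA4 rose by 4.84 with G669043, from 5.68 and 5.62 to 10.38 and 10.61, and VIM by 2.51, from 8.11 and 8.02 to 10.65 and 10.50. MAGEA11, another MAGE-A gene named after its values were seen, rose by 1.27 with Aza and 3.06 with G669043. The MAGEA11 difference was lost without any of 4 arrays (limma adjusted p from 0.0555 to 0.0741), namely Aza 1500 nM replicate 2, Aza 150 nM replicate 1, G669043 1500 nM replicate 2 and G669043 150 nM replicate 1. TKTL1, MAGEA4 and MAGEA11 were the 3 cancer-testis antigens, of 35, that passed in this test, all with a smaller rise for Aza. Over all genes 0.305% passed as lower for Aza.

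A few rises were larger with Aza. LCN2 was at 6.57 and 6.50 and then 7.29 and 7.09 with G669043, and the Aza rise was larger by 1.24 ± 0.14 (SE, limma adjusted p = 8.54e-05). CBR1 went from 4.80 and 5.27 to 5.61 and 5.66 with G669043, 1.16 short, and AKR1B10 from 6.55 and 6.59 to 6.64 and 6.63, 0.88 short. For CBR1 each compound had a 150 nM array under 5, so the size of its difference is not settled. DAZL rose by 3.62 with G669043 against 5.14, but this difference was lost with 6 of the 8 arrays left out in turn (limma adjusted p from 0.0908 to 0.135) and after median centring (0.056). HDGFL3, of a growth factor family, had 0.90 more with Aza, lost without any of 7 arrays (limma adjusted p from 0.0604 to 0.179) and with cross-matching probe sets left out (0.117). BACE2, a membrane protease, had 0.85 more, with 0.57 (limma adjusted p = 0.366) with cross-matching probe sets left out.

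Several falls were seen with Aza and passed as larger than those of G669043. SCD went from 12.84 and 12.79 to 12.46 and 12.71 with G669043, a difference of -0.23 (limma adjusted p = 0.218), and the Aza value minus this one was -1.15 ± 0.14 (SE, limma adjusted p = 0.000112). S100A4 went from 11.11 and 11.01 to 10.50 and 10.59 with G669043, and TNNC1 from 7.48 and 7.49 to 7.20 and 7.11, so both fell with each compound, with Aza minus G669043 at -1.12 and -1.13. In the sterol and fatty acid list 0 members rose and 1 fell with G669043, against 1.69% and 2.18% of all genes. The median was -0.02, and 1 was higher and 5 lower at an unadjusted p under 0.05 by limma. In the test of the difference 4 of 35 passed as lower for Aza, against 0.305% of all genes: SCD, STARD4, IDI1 and LSS. STARD4 lost that call without replicate 2 of any of the 4 groups (limma adjusted p from 0.0585 to 0.0832) and after median centring (0.065). LSS lost it with 7 of the 8 arrays left out in turn (from 0.0608 to 0.234) and after median centring (0.133). IDI1 held with each array left out but lost the call with probe sets averaged (0.202) and showed -0.01 (0.995) with cross-matching probe sets left out. Of the 27 unfolded protein response genes 0 passed with G669043 by limma, with 2 higher and 0 lower at an unadjusted p under 0.05. In the test of the difference 0 passed, with 0 higher and 10 lower for Aza at that unadjusted p. With G669043 1.69% of all genes rose and 2.18% fell. For the S phase list, 0 of 63 genes rose with G669043 and 11 fell, with a median of -0.20. In the test of the difference 0 of these passed by limma, with 17 higher and 0 lower for Aza at an unadjusted p under 0.05.

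**Figure D5:**
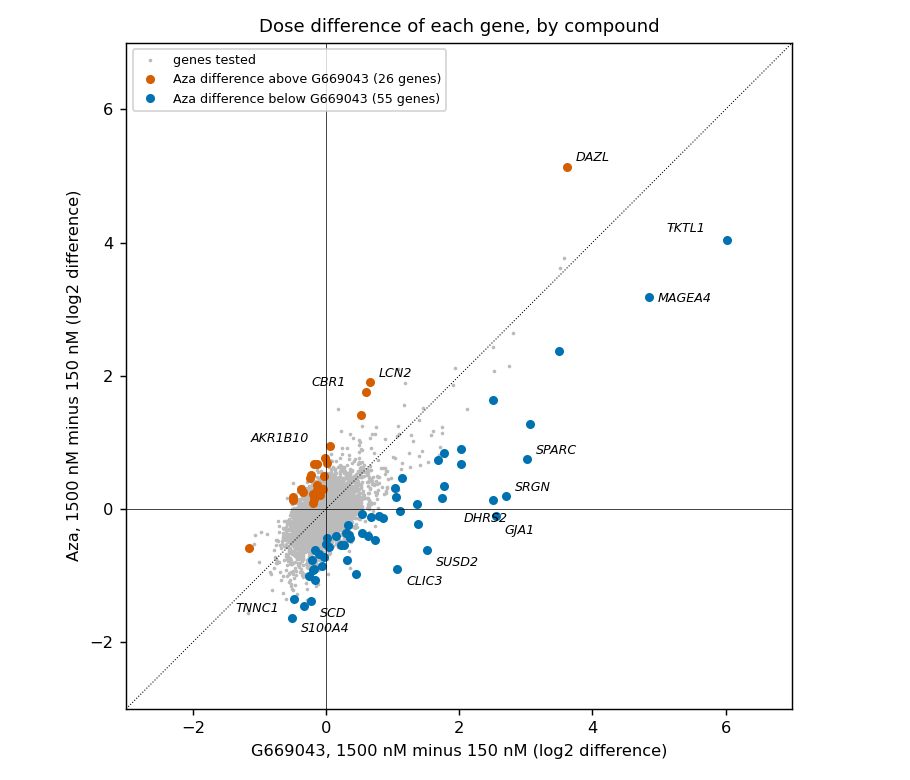
Dose difference of each gene with G669043 (x axis) and with Aza (y axis), both as log2 of 1500 nM minus 150 nM, with a dotted line where they are equal. Coloured points are the 26 and 55 genes whose difference passed, among them DAZL and LCN2 above the line, and DHRS2, SRGN, GJA1 and TKTL1 below it.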

How the data were processed

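Expression was measured on HG-U133 Plus 2.0 arrays. Per the submitters' processing notes, RMA was run in Affymetrix Expression Console 1.1. The values the authors deposited are linear intensities of 54675 probe sets, and each is a power of 2 whose exponent has 2 decimals (within 0.002). Their log2 was taken here. No source used here gives the genome build of the annotation, and the table holds no detection calls. The probe table gave 1 gene symbol to 41091 probe sets, several to 1801 and none to 11721, 62 were array controls, and 41037 matched RefSeq gene numbers (GRCh38.p14). Probe sets of at least log2 5 on 2 or more arrays were kept (35146), and the brightest kept probe set stood for its gene (18055 genes). Groups were the sample titles without their replicate number.

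limma 3.58.1 (R 4.3.3) fitted a mean per group over the 24 arrays, with lmFit and eBayes with an intensity trend, and had 13 residual and 6.14 prior degrees of freedom. A call needed a 2-sided Benjamini-Hochberg adjusted p under 0.05 over all genes. The fit was tested on simulated data. For arrays it is their number that limits the precision. The genes compared and the 27 gene lists (1059 entries, 922 tested) were chosen with earlier results of these data known. Names came from a pool of 117: the 15 higher and 15 lower called genes with the largest differences whose doses did not overlap, up to 5 called members of each list, DNMT1, DNMT3A, DNMT3B and UHRF1, and the 6 highest and 6 lowest of the difference between compounds. CDKN1A, ASNS, CLIC3, CDKN2A, MAGEA11, IDI1, LSS, SREBF1, SREBF2 and FAM216A were added after their values were seen, as were MAGEA6, MAGEA8 and EPCAM. Lists were described by counts and medians, with no test of a list. Replicate numbers served as names only, since the labels do not pair the arrays. Deviations of same-numbered arrays correlated at -0.06 between the 2 Aza doses. Over all pairs of treated groups this ran from -0.39 (ester 7 µM with Aza 1500 nM) to 0.61 (DAC 120 nM with ester 150 nM), and its source was not tested. The alternatives were other filters, scalings, probe set rules and sample sets, eBayes without a trend, a replicate block, a beta-actin covariate and each array left out; leaving out DMSO arrays was added after seeing the data. Tables and figures used Python 3.11.15, pandas 2.3.3 and matplotlib 3.10.9. Sequences came from the RefSeq table.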

Additional observations from a re-analysis of the deposited data

Results flagged for a closer look

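In 4 of the 92 genes the text draws on, 1 DMSO array stood far from the other 3, and chance flags about 1 in 20 groups of 4. These were the lowest DMSO values of FMR1NB (3.43), S100A4 (11.16) and GJA1 (3.39) and the highest of TRDMT1 (7.77). DMSO arrays enter the contrast between the Aza doses only through the shared estimate of spread.

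For 33 of these genes the dose difference of Aza differed from that of G669043 by the limma test of the difference itself, given here as Aza minus G669043 on the log2 scale. It was above 0 for DAZL (1.53), LCN2 (1.24), CBR1 (1.16), HDGFL3 (0.90), AKR1B10 (0.88), BACE2 (0.85), ASNS (0.70) and FAM216A (0.68). Among germ cell and mesenchymal genes it was below 0 for TKTL1 (-1.98), MAGEA11 (-1.78), MAGEA4 (-1.66), LIN28B (-1.14), VIM (-0.88), S100A4 (-1.12) and LGALS1 (-0.46). Genes that were already above DMSO at Aza 150 nM included GJA1 (-2.65), SRGN (-2.50), DHRS2 (-2.36), SUSD2 (-2.12), CLIC3 (-1.96), TNNC1 (-1.13) and CDKN1C (-0.80). SPARC (-2.27) did not pass against DMSO at that dose. It was also below 0 for the lipid genes SCD (-1.15), STARD4 (-0.73), LSS (-0.55) and IDI1 (-0.53), for the interferon genes IFIT1 (-0.76), IRF9 (-0.76) and IFI6 (-0.57), and for ARID5B (-0.87), KRT20 (-0.93) and ALDOC (-0.72). LIN28B, ARID5B, IFIT1, IRF9, IFI6, ALDOC, KRT20 and ASNS lost this call when 1 of several arrays was left out, with adjusted p up to 0.205, 0.22, 0.188, 0.254, 0.197, 0.121, 0.071 and 0.26.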

How the results depend on the processing

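Of 84 called genes among the 92 the text draws on, 57 were called with each Aza array left out. Of the 64 with a value under all 15 alternatives of the dose contrast, 33 were called in each, and none of the 84 reversed. With each array left out the genes higher and lower were 170 to 203 and 142 to 435 for Aza, 121 to 162 and 94 to 123 for G669043, 7 to 13 and 31 to 44 for their difference, 746 to 1712 and 671 to 1951 for Aza 1500 nM against DMSO, and 44 to 289 and 12 to 108 for 150 nM. For Aza, higher and lower genes were 961 and 1827 in a fit of the arrays of the contrast alone, 660 and 959 over the 20 treated arrays and 678 and 1084 with the actin covariate; the higher genes were 246 after median centring and 267 with cross-matching probe sets left out. For G669043 they were 734 and 1571, 532 and 796, 907 and 1863 in the same fits, 198 and 229 after median centring, and 255 lower with quantiles matched again. For the difference they were 348 and 267, 128 and 118, and 221 and 123, with 88 lower under matched quantiles and 13, 12 and 14 higher after median centring, without those probe sets and without the trend. Against DMSO, 878 (1500 nM) and 104 (150 nM) were higher without those probe sets; at 150 nM the actin covariate gave 448 and 140, and 155 and 32 were lower with matched quantiles and centring. The causes were not tested.

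A replicate block over the 20 treated arrays gave 677 higher and 1052 lower for Aza, 558 and 855 for G669043, and 132 and 128 for the difference. The labels do not pair these arrays. Among the 92 genes only the Aza call of SPARC then differed from the main fit over 24 arrays (0.75, limma adjusted p = 0.00104 against 0.0793). SPARC also passed over the same 20 arrays without the block (limma adjusted p = 0.00277), so the block itself changed no Aza call among these genes. Precision is limited by 2 arrays a dose, and levels under log2 5 cannot be told from background.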
